A study of Caenorhabditis elegans with 2 samples.

Results

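The mitochondrial DNA of Caenorhabditis elegans carries 36 genes in the Ensembl WBcel235 annotation: 12 protein-coding genes, 22 tRNA genes and 2 rRNA genes. They were taken as all genes annotated on MtDNA and make up 36 of the 46926 annotated genes. The rule itself uses no measured value, but it was chosen with earlier results of these data known. The data were ChIP-seq region lists for the nuclear hormone receptor NHR-237, from whole L4 larvae of strain OP228, males and females pooled. The strain's genotype is unc-119(ed3) III; wgIs228, a stable transgene that carries NHR-237 with GFP and FLAG at its C-terminus; the labels name neither the promoter that drives it nor its level. All samples shared this genotype and stage and formed 1 group of 2 biological replicates, with no untagged strain and no control sample among the files used. The strain is a single transgenic line, so the values describe that line.

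Mitochondrial DNA is a small circular molecule kept in many copies inside the organelle, apart from the chromosomes in the nucleus. Its protein-coding genes make core membrane subunits of the respiratory chain and of ATP synthase, and its rRNA and tRNA genes serve the ribosomes that translate them inside the organelle. The other subunits of these complexes, and the proteins that copy and transcribe the molecule, are encoded in the nucleus and imported. Nuclear hormone receptors are transcription factors with a zinc finger DNA-binding domain, and the family is greatly expanded in nematodes.

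The molecule is 13794 bp long, with a GC content of 23.8%, and all 36 genes lie on the plus strand. The region lists carry no strand, so strand describes the genes alone. Protein-coding genes fill 10437 bp (75.7%), rRNA genes 1648 bp (11.9%) and tRNA genes 1180 bp (8.55%), which leaves 529 bp (3.84%) without a gene. Most of the gene-free sequence is 1 stretch of 467 bp after the last gene, at 13328 to 13794, with a GC content of 6.85%. Positions throughout are on ce11, which has the WBcel235 sequence, and count along the plus strand. Ensembl names only 3 of the genes, so the names come from RefSeq genes at the same position and strand.

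The sequences under the 5 strongest mitochondrial summits of the irreproducible discovery rate (IDR) list are shown because of their high signal. Their regions hold ranks 1, 2, 3, 5 and 6 of that list, with the strongest nuclear region (signal 251.6) between them. A summit is the base at which the authors placed the peak of a region. Each window is 101 bases of the RefSeq genome record (ce11, plus strand, 5′ to 3′), and the capitals mark the 21 bases centred on the summit.
ND1, chrM:2388-2488: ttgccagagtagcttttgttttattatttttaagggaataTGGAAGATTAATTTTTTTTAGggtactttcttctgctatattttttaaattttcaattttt
CYTB, upstream summit, chrM:4726-4826: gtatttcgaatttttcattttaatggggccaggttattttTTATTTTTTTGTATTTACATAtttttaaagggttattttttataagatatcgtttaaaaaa
CYTB, downstream summit, chrM:5532-5632: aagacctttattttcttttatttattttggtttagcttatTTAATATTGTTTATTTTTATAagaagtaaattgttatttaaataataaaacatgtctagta
tRNA-Gly, chrM:9597-9697: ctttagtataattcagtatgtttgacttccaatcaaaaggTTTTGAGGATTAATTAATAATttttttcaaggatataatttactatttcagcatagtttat
s-rRNA, chrM:1312-1412: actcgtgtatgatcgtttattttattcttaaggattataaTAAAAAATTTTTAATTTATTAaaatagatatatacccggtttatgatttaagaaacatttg
These windows were AT-rich like the molecule, with GC contents of 22.8% for ND1, 19.8% and 15.8% for the upstream and downstream summits of CYTB, 22.8% for tRNA-Gly and 19.8% for s-rRNA.

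The IDR list holds the regions that passed the authors' reproducibility procedure, and 24 of its regions (10.1%) lay on mitochondrial DNA, beside 213 on nuclear chromosomes. The pooled list, made from both replicates together, had 27 mitochondrial regions among 26787, replicate 1 had 27 among 30000 and replicate 2 had 25 among 30000. These 3 long lists hold peaks together with background, so a region's presence in one says little and its signal is the informative value. Signal is the authors' own value for each region, on a scale that no source used here gives and that differs between lists. The depth of the samples is unknown, since the lists hold no read counts.

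Most mitochondrial regions ranked high in their list, with a median rank of 36 in the IDR list and in replicate 1, 38 in the pooled list and 33 in replicate 2. The lowest ranks were 75 in the IDR list, 6009 in the pooled list, 11113 in replicate 1 and 3034 in replicate 2. In the IDR list they ranged from 55.9 to 369 on the signal scale with a median of 98.0, against a median of 39.9 and a maximum of 251.6 for the nuclear regions. In replicate 1 the median was 60.2 and the maximum 253 on mitochondrial DNA, against 6.79 and 169 on nuclear chromosomes. In replicate 2 the median was 42.6 and the maximum 136 on mitochondrial DNA, against 4.35 and 88.3 on nuclear chromosomes. The signal ranges of mitochondrial and nuclear regions overlapped in every list, although the single strongest region was mitochondrial each time. The ratio of the medians, mitochondrial over nuclear, was 2.46 in the IDR list, 9.93 in the pooled list, 8.87 in replicate 1 and 9.81 in replicate 2.

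Mitochondrial regions took 7 of the 10 highest signals in the IDR list, 8 in replicate 1 and 7 in replicate 2. Of the mitochondrial regions, 23 in replicate 1 and 22 in replicate 2 were among the strongest of their list when as many regions were taken as the IDR list holds. They held 22.7% of the summed signal of the IDR list, 1.07% in replicate 1 and 0.888% in replicate 2. No test was made between mitochondrial and nuclear regions, since the regions of 1 molecule are not replicates and no control list was used. Mitochondrial DNA is present in many copies, and copy number and binding cannot be told apart in these lists.

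**Figure D1:**
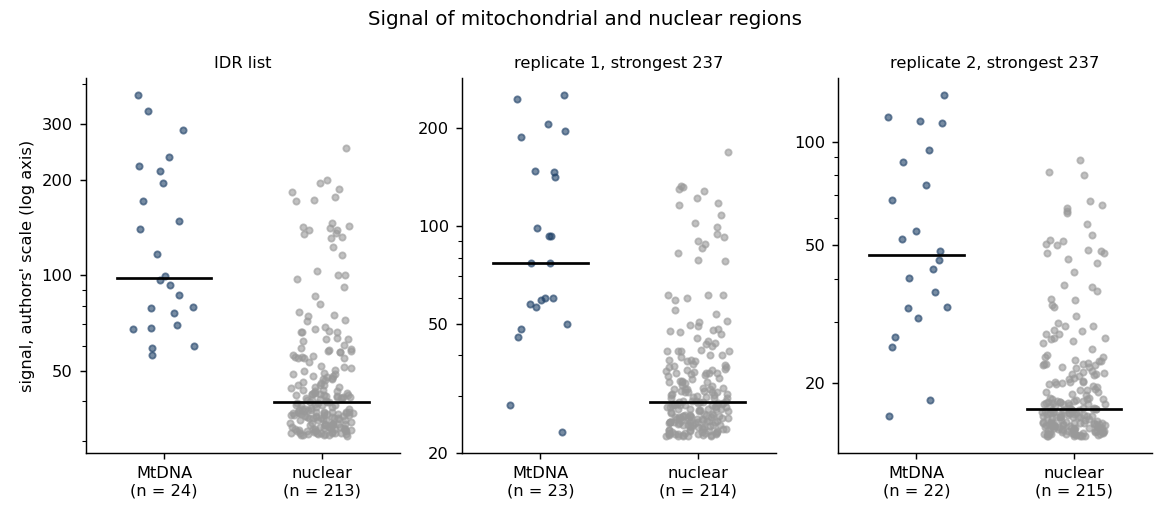
Signal of each region on the authors' scale (log axis) for mitochondrial (MtDNA) and nuclear regions in the IDR list and in the strongest regions of each replicate, as many as the IDR list holds; a point is a region and a line the median. Mitochondrial regions reach 369, 253 and 136 in the 3 panels, each above the highest nuclear region, and the ranges of both overlap.

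Regions covered about as much of the molecule as they left bare. IDR regions lay over 6619 bp (48.0%), in 14 separate stretches. The regions of replicate 1 covered 7613 bp (55.2%) and those of replicate 2 covered 7886 bp (57.2%). Covered in both replicates was 35.5% of the molecule, in replicate 1 alone 19.7%, in replicate 2 alone 21.7% and in neither 23.1%. Of the length covered in replicate 1, 64.3% was also covered in replicate 2, and of the length covered in replicate 2, 62.1% was also covered in replicate 1.

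Of the 36 genes, 24 were overlapped by 1 bp or more by an IDR region, against 0.486% of all 46926 annotated genes. They were all 12 protein-coding genes, both rRNA genes and 10 of the 22 tRNA genes. A summit of the IDR list lay inside 15 genes, against 0.232% of all annotated genes. In the pooled list 24 genes were overlapped (29.5% of all annotated genes). In the replicate lists 27 genes were overlapped in replicate 1 (32.2% of all annotated genes) and 25 in replicate 2 (33.1% of all annotated genes). These long lists reach many genes by their length, so only the strongest regions of each replicate, as many as the IDR list holds, were also taken. They overlapped 22 mitochondrial genes in replicate 1, against 0.488% of all annotated genes, and 25 in replicate 2, against 0.55%. Neighbouring genes often shared a region, because regions were up to 340 bp wide in the IDR list and most tRNA genes are far shorter.

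**Figure D2:**
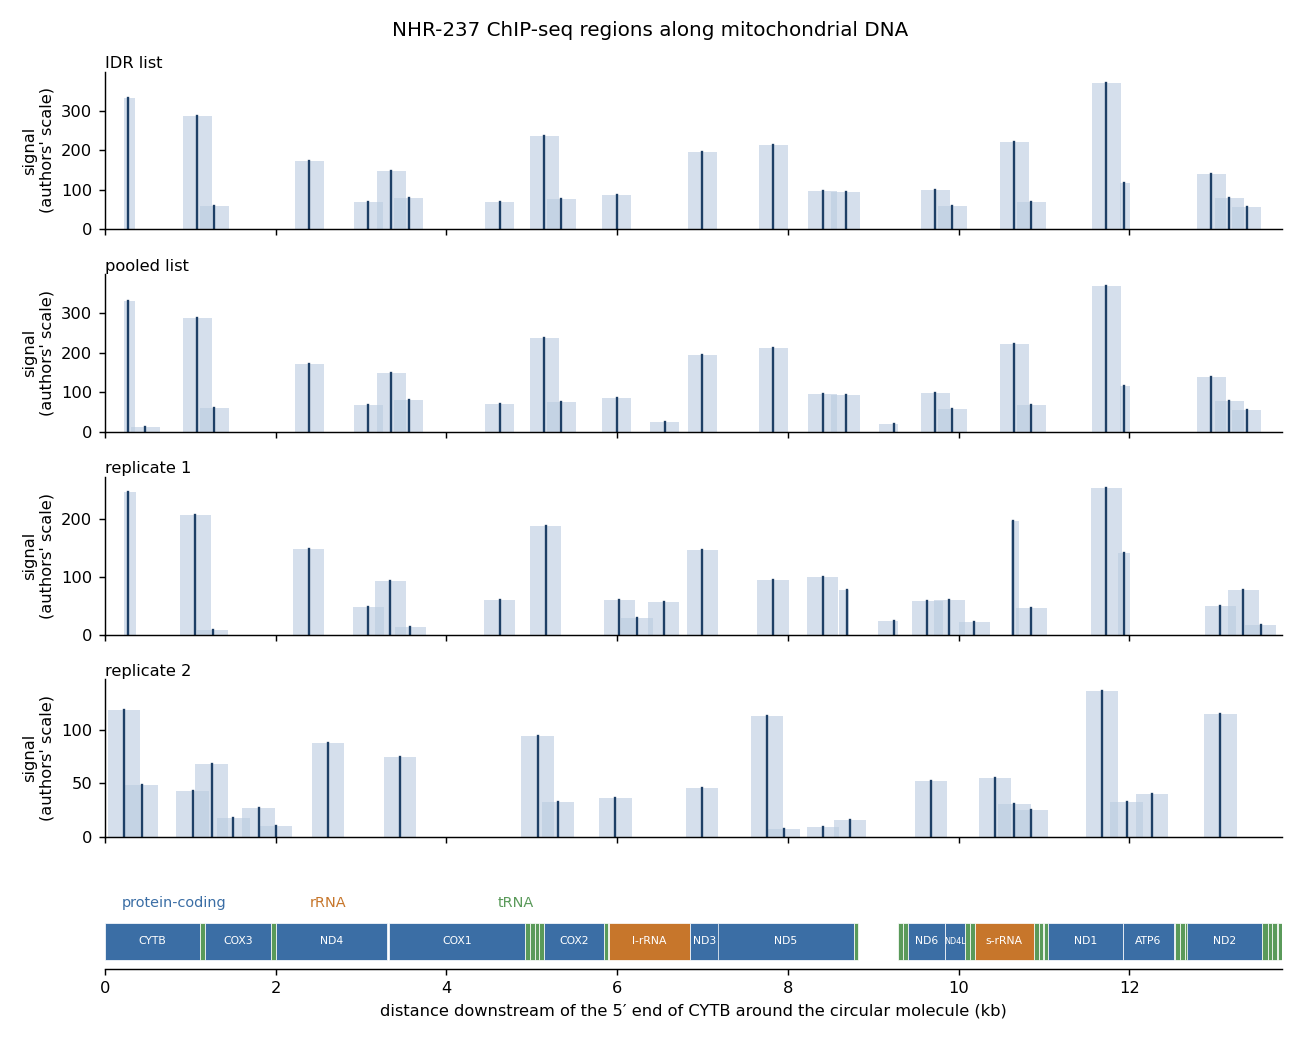
Regions (pale bars, width to scale) and summits (dark lines) along the circular molecule, drawn from the 5′ end of CYTB, with signal on the authors' scale of each list and the gene classes below. IDR regions fall in 14 separate stretches over all 12 protein-coding genes, and the strongest region of every list lies in ND1.

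The strongest overlapping signal of each of the 24 genes was the same in the pooled list as in the IDR list, so both are given as 1 value. Complex I, which passes electrons from NADH to ubiquinone, is represented by 7 genes. ND1 (1763 to 2635), its subunit next to the quinone-binding site, had the strongest region of each list, with signals of 369 in the IDR list, 253 in replicate 1 and 136 in replicate 2. The IDR summit at 2438 lay 675 bp from the start of ND1 and 197 bp from its end. The summit of replicate 1 was at the same base and that of replicate 2 was 50 bp upstream, at 2388. The strongest point of the molecule therefore lay well inside a coding sequence and not at a gene boundary.

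ND5 (11691 to 13272), one of the proton-pumping antiporter-like subunits, had a strongest signal of 213 in the IDR list, 98.8 in replicate 1 and 113 in replicate 2. Its 3 IDR summits at 12335, 12911 and 13183 had IDR signals of 213, 96.9 and 93.5. The 3 places were matched unequally in the replicates. The region at 12911 had a signal of 98.8 in replicate 1 at the same base (rank 20), beside 9.17 in replicate 2, 3 bp away (rank 1285).

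ND4 (6506 to 7808), another antiporter-like subunit, had a strongest signal of 171 in the IDR list, 148 in replicate 1 and 87.5 in replicate 2. Its summits in the 2 replicates lay apart, at 6888 in replicate 1 and 7116 in replicate 2. A further IDR region of ND4, with its summit at 7590 and a signal of 67.8, had the same summit base in replicate 1 and no overlapping region in replicate 2.

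ND2 (3389 to 4269), the remaining large antiporter-like subunit, had a strongest signal of 139.6 in the IDR list, 77.2 in replicate 1 and 115 in replicate 2. Its region was in place 3 of the whole replicate 2 list, against place 31 in replicate 1. Its 3 IDR summits, at 3670, 3878 and 4088, stood beside 1 region in replicate 2, with its summit at 3778. Replicate 1 had a summit at the same base, with a signal of 50.1, and others at 4046 and 4252. The strongest IDR summit of ND2, at 3670, was 108 bp from the nearest summit of either replicate.

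ND3 (11356 to 11691), a small subunit near the junction of the complex's arms, had 195 in the IDR list, 147 in replicate 1 and 45.4 in replicate 2. Its summits in these 3 lists, at 11503, 11499 and 11501, lay within 4 bp of each other. ND6 (113 to 549) and ND4L (549 to 783), small membrane subunits encoded side by side, shared a strongest region with signals of 99.2 in the IDR list, 60.0 in replicate 1 and 52.2 in replicate 2. These were the lowest IDR values among the protein-coding genes.

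CYTB (4504 to 5621), the cytochrome b subunit of complex III, which passes electrons from ubiquinol to cytochrome c, had strongest signals of 331 in the IDR list, 246 in replicate 1 and 118 in replicate 2. It was second to ND1 in all 3. The IDR region was one of the few narrow ones, at 132 bp with its summit at 4776, and the summits of the replicates were 4 bp and 48 bp upstream. A second strong summit, at 5582 with a signal of 287, lay near the 3′ end of CYTB, and its region ran through tRNA-Leu (CUN) into COX3.

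Complex IV, the oxidase that hands electrons to oxygen, has its 3 core subunits encoded here. COX3 (5678 to 6449) had 287 in the IDR list, 206 in replicate 1 and 67.8 in replicate 2. The first and second of these values came from the region whose summit lies in CYTB. Inside COX3 itself the IDR summit was at 5781 with a signal of 59.8. The nearest replicate 1 summit, at 5764, had a signal of 7.62 (rank 11113), beside 67.8 in replicate 2 at 5753. Replicate 2 had regions over the whole gene, against 34.7% of it in replicate 1.

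COX2 (9649 to 10348), the subunit that takes electrons from cytochrome c, had 236.6 in the IDR list, 188 in replicate 1 and 94.7 in replicate 2. That region had its IDR summit at 9647, the last base of tRNA-Gly and just upstream of COX2. COX1 (7827 to 9428), the catalytic subunit, had 148 in the IDR list, 93.1 in replicate 1 and 94.7 in replicate 2. The replicate 2 value of COX1 belonged to the region shared with COX2, whose summit at 9571 is in tRNA-Asp; the strongest summit inside COX1 in replicate 2 was at 7959 with a signal of 74.9. The COX1 summit at 8060, with 79.4 in the IDR list, had 12.5 in replicate 1 at 8078 (rank 1886), and its nearest replicate 2 summit was at 7959. A COX1 region of the IDR list with its summit at 9129 and a signal of 69.9 had a replicate 1 summit 1 bp away and no overlapping region in replicate 2. Replicate 2 left 1232 bp of COX1 bare, from 8149 to 9380.

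ATP6 (2634 to 3235), a membrane subunit of ATP synthase, had 117 in the IDR list, 142 in replicate 1 and 40.1 in replicate 2. Its IDR summit at 2653 was 19 bp from the gene's start, at the same base as in replicate 1. The strongest region of replicate 2 over ATP6 had its summit elsewhere, at 2977. Replicate 2 also had a region with its summit at 2679, 26 bp from the IDR summit, with a signal of 32.8 (rank 45). IDR regions covered only 13.1% of ATP6, the smallest share of any protein-coding gene.

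Among the rRNA genes, s-rRNA (898 to 1593), the small ribosomal RNA, had 222 in the IDR list, 197 in replicate 1 and 55.1 in replicate 2. Its IDR summits were at 1362 and 1562. The replicate 2 value came from another region, with its summit at 1138. Beside the IDR summit at 1362, replicate 2 had 30.7 at 1363 (rank 47) and replicate 1 had 197 at 1349 (rank 4). The large ribosomal RNA, l-rRNA (10403 to 11354), had 195, 147 and 45.4 in the same lists, all from the region it shares with ND3. Summits inside l-rRNA were lower, with an IDR signal of 87.0 at 10498. Both rRNA genes ranked lower in replicate 2 than in replicate 1, in places 9 and 12 of the 14 protein-coding and rRNA genes against places 4 and 7.

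The tRNA genes had 1 IDR summit among them, the one at 9647 in tRNA-Gly. The 10 tRNA genes under an IDR region had strongest IDR signals of 59.0 to 287 with a median of 90.2, and 8 of them lay wholly under IDR regions. The 12 without were tRNA-Pro, tRNA-Val, tRNA-Glu, tRNA-Lys, tRNA-Leu (UUR), tRNA-Ser (AGN), tRNA-Ile, tRNA-Arg, tRNA-Gln, tRNA-Phe, tRNA-Thr and tRNA-Cys. Of these, tRNA-Pro, tRNA-Val, tRNA-Lys, tRNA-Leu (UUR), tRNA-Ser (AGN) and tRNA-Phe had no region in any of the 4 lists. Regions were present in replicate 1 alone over 5 genes (tRNA-Trp and tRNA-Glu at 22.4, tRNA-Ile, tRNA-Arg and tRNA-Gln at 15.9). They were present in replicate 2 alone over 3 (tRNA-Thr at 27.1, tRNA-Cys at 94.7 and tRNA-Ala at 16.0). These long lists overlap 32.2% of all annotated genes in replicate 1 and 33.1% in replicate 2. The share of all genes found in 1 replicate alone was not counted, so these counts show no trait of the tRNA genes.

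**Figure D3:**
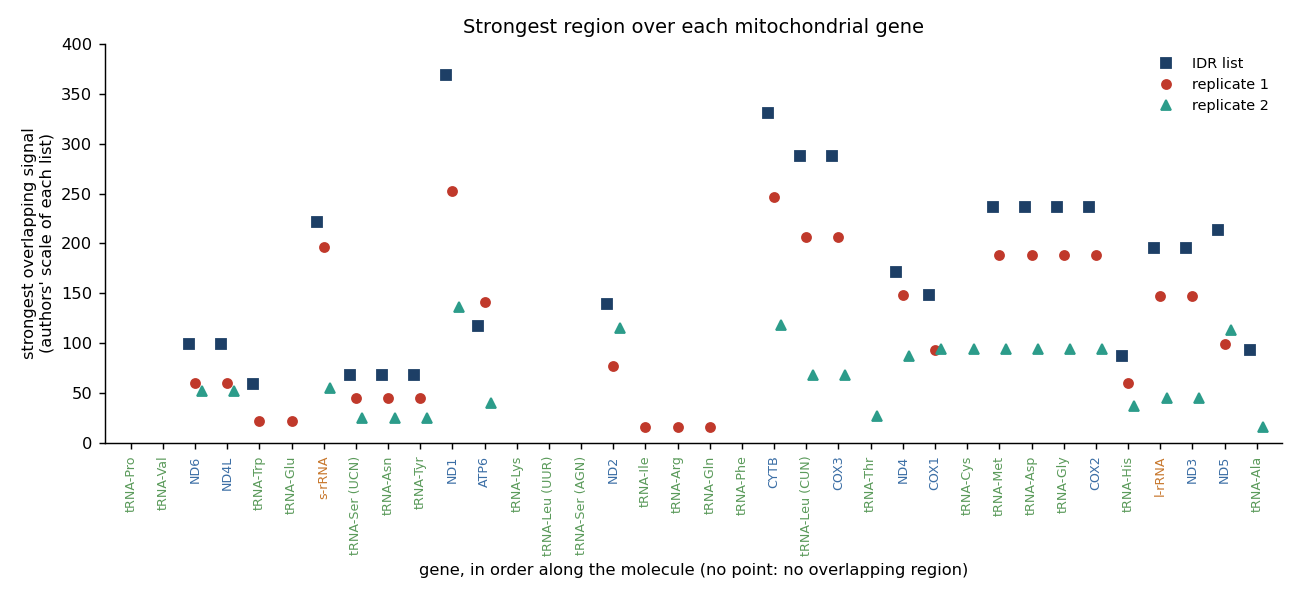
Strongest overlapping signal for each of the 36 genes in order along the molecule, on the authors' scale of each list, with no point where no region overlaps. ND1 is highest at 369, 253 and 136 in the IDR list, replicate 1 and replicate 2, and tRNA genes that share a region with a neighbour share its value.

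By gene class, 20 of the 24 IDR summits (83.3%, exact 95% binomial interval 62.6% to 95.3%) fell in protein-coding genes, which fill 75.7% of the molecule. The rRNA genes held 3 summits, the tRNA genes 1, and sequence without a gene 0 of 24, which allows a share of up to 14.2% by the same exact interval. These intervals and limits cover counting error only. They take the summits as independent, although neighbouring regions overlap on the same molecule, so they are a description and no test. The interval for protein-coding genes includes their share of the molecule. IDR regions lay over 51.6% of the protein-coding length, 41.8% of the rRNA length, 40.9% of the tRNA length and 11.2% of the sequence without a gene.

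The order of the genes was only partly shared by the replicates. As a percentage of the strongest region of its own list, which sets ND1 at 100 in both, CYTB averaged 92.1 ± 7.44 and COX2 72.1 ± 3.54 (SD, n = 2). ND2 averaged 57.5 ± 38.0, with 30.6 in replicate 1 and 84.3 in replicate 2, from summits at 4046 and 3778. The small ribosomal RNA averaged 59.1 ± 26.4, with 77.8 in replicate 1 and 40.5 in replicate 2, from summits at 1349 and 1138. Such SDs therefore do not compare a single site. Of the 13 neighbouring pairs in the order of the 14 protein-coding and rRNA genes, ND1 over CYTB and CYTB over COX2 were apart by more than the larger SD of the pair. The gap of 7.86 between ND1 and CYTB was set against the SD of CYTB alone, since ND1 has none by construction. The other 11 neighbouring pairs were not apart by that measure. Among them, l-rRNA and ND3, and likewise ND6 and ND4L, share their strongest region, so their gap is 0 by construction. Pairs further apart in the order were not compared.

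Across the 22 genes with a region in both replicates, the strongest signals had a Spearman rho of 0.64 and a Pearson r of 0.67 on the log10 scale. Many of these genes share a region, so the 22 points hold 14 distinct pairs of values. Over the 14 protein-coding and rRNA genes alone the rho was 0.36. As a percentage of the strongest region of each list, the value was higher in replicate 2 for 10 of the 22 genes, lower for 11 and equal for ND1, which is 100 in both. On the lists' own scales the ratio of replicate 2 over replicate 1 was highest for ND2 at 1.49, ND5 at 1.15 and COX1 at 1.02. It was lowest for s-rRNA at 0.280 and ATP6 at 0.283. In each of these genes the strongest regions of the replicates had summits at different places, so the ratios do not compare a single site. The rho values carry the same limit. At the ND2 summit shared by both, 3778, the signals were 50.1 in replicate 1 and 115 in replicate 2. Near the start of COX1 they were 93.1 at 7844 in replicate 1 and 74.9 at 7959 in replicate 2. The median ratio was 0.520 over the mitochondrial genes. The same ratio was 0.640 between the nuclear median signals of the lists and 0.523 between their nuclear maxima. The lists have their own scales, and a median over all nuclear regions is not the same measure as strongest signals over genes.

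Summits were placed more alike between the IDR list and replicate 1 than between the IDR list and replicate 2. The nearest replicate 1 summit was at a median of 16 bp from an IDR summit, within 25 bp for 17 of 24 and at most 184 bp away. The nearest replicate 2 summit was at a median of 51 bp, within 25 bp for 5 of 24 and at most 442 bp away. Weak summits are counted here, such as 5764 (signal 7.62) and 8078 (12.5) in replicate 1 and 12914 (9.17) in replicate 2. All 24 IDR regions were overlapped by a region of replicate 1 and 22 by a region of replicate 2, the exceptions being those with summits at 7590 in ND4 and 9129 in COX1. That count takes 1 bp of overlap: the share found in both replicates was 91.7% by it, 66.7% with summits within 100 bp and 58.3% with a reciprocal overlap of 50%. Regions covered 55.2% of the molecule in replicate 1 and 57.2% in replicate 2, so an overlap of 1 bp is easily met. No such share is given for the nuclear IDR regions, so the recovery cannot be called particular to the molecule. Both lists went into the selection of the IDR list, so this recovery is a description and no independent check.

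The spacing of summits follows in part from the 24 IDR regions lying on only 13794 bp. Of the 23 neighbouring summit pairs in the IDR list 10 were under 400 bp apart on mitochondrial DNA, against 0.966% of nuclear neighbours. Nuclear neighbours lie on far longer chromosomes, so this contrast mainly restates the number of regions for the length. No comparison with random placement was made. The closest pair was 199 bp apart on mitochondrial DNA, as on the nuclear chromosomes. In 9 of these 10 pairs the summit at the lower coordinate had the higher signal, and in replicate 1 and replicate 2 this held for 8 of 12 each. Nuclear close pairs had the same order in 77.5% in replicate 1 and 75.2% in replicate 2, so it was not confined to the molecule.

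The molecule is a circle, so bare stretches were also joined across the ends of the sequence record. The longest stretches without an IDR region were 2713 to 3499 (787 bp, from ATP6 through tRNA-Lys, tRNA-Leu (UUR) and tRNA-Ser (AGN) into ND2), 5951 to 6723 (773 bp, from COX3 into ND4), 8230 to 8958 (729 bp inside COX1), and 13353 through the end of the record to 266 (708 bp, from the gene-free stretch through tRNA-Pro and tRNA-Val into ND6), followed by 10668 to 11332 (665 bp inside l-rRNA). The joined one held 442 bp of the gene-free stretch after the last gene. The gene-free stretch after the last gene was covered over 5.35% in the IDR list, against 52.5% in the pooled list, 49.7% in replicate 1 and 19.7% in replicate 2.

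The pooled list had 3 mitochondrial regions outside the IDR list, whose sequences are shown in the same way (ce11, plus strand, RefSeq record, capitals for the 21 bases centred on the summit) because they bound the weak end of the molecule's signal.
CYTB, middle summit, chrM:4927-5027: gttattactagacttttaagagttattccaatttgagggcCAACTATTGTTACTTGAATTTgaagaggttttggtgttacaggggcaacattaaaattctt
l-rRNA, chrM:11012-11112: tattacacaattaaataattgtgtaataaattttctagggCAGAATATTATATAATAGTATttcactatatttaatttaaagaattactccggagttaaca
after the last gene, chrM:13695-13794: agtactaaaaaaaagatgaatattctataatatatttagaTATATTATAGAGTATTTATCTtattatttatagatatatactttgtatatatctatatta
Their pooled signals were 12.1 at 4977 in CYTB, 24.3 at 11062 in l-rRNA and 20.5 at 13745 after the last gene, at ranks 6009, 461 and 782 of the pooled list. All 3 were below the weakest mitochondrial IDR region at 55.9. The CYTB place had a signal of 48.2 in replicate 2, at 4933, and no summit in replicate 1 under the pooled region. The l-rRNA place had 56.2 in replicate 1, at 11047, and the gene-free place had 23.2 in replicate 1 at the same base; neither had a region in replicate 2. Each of the 3 therefore held a summit in 1 replicate only.

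The weak CYTB place is also the only one with a nuclear copy by the search used. A stretch of 126 bp, from 4903 to 5028 in CYTB, matched chromosome X with 96.0% identity, and it covers 0.913% of the molecule. No IDR summit lay under it, while the pooled summit at 4977 and the replicate 2 summit at 4933 did. The sources used here do not say how reads that match both places were treated.

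Base composition was followed because the molecule is so AT-rich. The median GC content of the 201 bp around a summit was 21.6% in the IDR list, 20.9% in replicate 1 and 24.4% in replicate 2, against 23.9% over all such windows of the molecule, whose quartiles are 20.4% and 28.4%. Sequence under IDR regions had 22.3% GC and sequence outside them 25.1%. The rho of signal and GC content over the mitochondrial regions was 0.11 in the IDR list (n = 24), 0.07 in replicate 1 (n = 27) and 0.12 in replicate 2 (n = 25). These points share a molecule and partly overlap in sequence, and the rho is a description. Regions with a signal over 100 had GC contents of 15.9% to 25.9% in replicate 1 and 19.4% to 29.4% in replicate 2, inside the range of all mitochondrial regions (11.3% to 32.3% in replicate 1 and 16.4% to 33.3% in replicate 2). The lowest of these, at 13745, comes from a window that the end of the sequence record shortens.

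**Figure D4:**
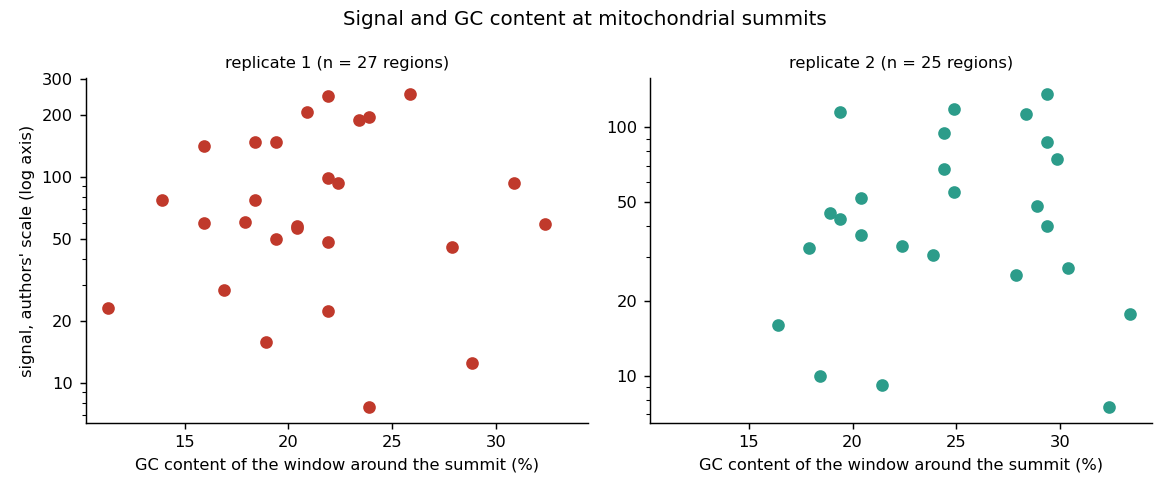
Signal of each mitochondrial region on the authors' scale (log axis) against the GC content of the 201 bp around its summit, in replicate 1 and replicate 2. Regions with a signal over 100 lie at 15.9% to 25.9% GC in replicate 1 and 19.4% to 29.4% in replicate 2, with weaker regions on either side of them and among them.

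The motifs AGGTCA, the classical element of nuclear hormone receptors, AAGTCA, which differs from it by 1 letter, and GAGAGA, a repeat known from worm promoters, were searched as exact letters on both strands. AGGTCA occurred 2 times on the molecule, so that 2.88% of all 201-bp windows hold it, and AAGTCA and GAGAGA 3 times each (4.33% of windows). Each was found in 1 of the 24 IDR windows (4.17%). The AGGTCA nearest a summit was at 5496 to 5501 in CYTB, 84 bp from the summit at 5582, and the AAGTCA nearest a summit was on the minus strand at 9619 to 9624 in tRNA-Gly, 26 bp from the summit at 9647. The matches overlap none of each other's positions. A match is a description of these letters only.

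Of nuclear genes for the same complexes, 52 of the 53 listed were found in the annotation, and 5 of them (9.62%) had an IDR summit in the promoter (1000 bp before to 200 bp past a 5′ end), against 0.816% of all 19973 nuclear protein-coding genes. They were cox-5B, cox-6B and cox-5A, subunits of complex IV, with IDR signals of 74.4, 59.1 and 57.1, atp-1, a subunit of the soluble head of ATP synthase, with 35.8, and cyc-2.1, a cytochrome c, with 35.0. All 5 lay below the mitochondrial median of 98.0, and 2 of them (atp-1 and cyc-2.1) below the lowest mitochondrial IDR signal of 55.9. Of 18 listed genes for copying, packaging and transcribing mitochondrial DNA, 16 were found and 0 had an IDR summit in the promoter, which allows a share of up to 18.75% (3 counts of 16). The list was chosen with earlier results of these data known, so its share supports nothing by itself.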

How the data were processed

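ChIP-seq of tagged NHR-237 was analysed in 2 biological replicates of 1 group, from the region lists the authors deposited: a list for each replicate, a pooled list and an IDR list, on ce11 and on ce10. The labels do not give the depth, and the lists hold no counts. Signal is the value the authors deposited for each region, on a scale that no source used here gives. The −log10 q values the authors deposited are tied among strong regions and were used for no result. Per the text files deposited with the samples, each replicate list was derived from that replicate's alignments and 1 further file that also entered the control-normalized tracks, and the IDR list from the pooled and both replicate lists. No source used here gives the aligner, the peak caller or the threshold.

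Members were the genes annotated on MtDNA in Ensembl release 115 (WBcel235), named from RefSeq genes at the same position and strand (34 of 36 starts identical, smallest overlap 94.4%). A gene was counted when 1 bp or more of its body lay under a region. GC content and motifs were taken from 201 bp around each summit. Nuclear copies were searched with blastn 2.17.0 at an e-value of 1e-05. Scripts ran in Python 3.11.15 with pandas 2.3.3, numpy 2.4.6 and scipy 1.17.1, and were tested on simulated data. Every comparison is a description with no test. The rule for named genes was all protein-coding and rRNA genes, tRNA genes with an IDR summit or without an IDR region, the 5 strongest regions, the pooled regions outside the IDR list, and listed nuclear genes with an IDR summit in the promoter. The members, the gene lists and the alternatives were chosen with earlier results of these data known.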

Additional observations from a re-analysis of the deposited data

How the results depend on the processing

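Of 26 alternatives to the 7 results, 17 left the result close to its main value. Close meant within 1.5 times for a count, and within the counting interval or spread for others. A reversal of direction was looked for only in the rho between replicates, and 0 of its alternatives showed one. The mitochondrial median signal also stayed above the nuclear one in each alternative to their ratio. The rho of 0.36 over protein-coding and rRNA genes, against 0.64, counted as close by an interval that takes genes as independent. Regions at or above the median signal kept all 24 mitochondrial regions, so that alternative could change only the ratio of medians. The length of the molecule under IDR regions was 48.0%, against 48.4% to 52.0% when the strongest regions of either replicate, as many as the IDR list holds, stood in for it, and 34.9% with 100 bp to either side of each summit. The 24 genes overlapped became 15 with a summit required inside the gene and 16 with 50% or more of the gene covered. The ratio of mitochondrial to nuclear median signal, 2.46, was 2.69 to 2.78 without a replicate, 3.24 in the ce10 lists and 1.70 among regions at or above the median signal. The share of IDR regions overlapped in both replicates, 91.7%, was 58.3% with 50% reciprocal overlap and 66.7% with summits within 100 bp. The region count stayed at 22 to 23 without a replicate and was 22 on ce10. The unknown depth limits every value, and no control or untagged sample was among the files used here. Whether the 1 further file behind each replicate list is a control could not be settled. No paired analysis was possible because the series has 1 group.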

Other observations

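The stretch that RefSeq leaves without a gene between ND4 and COX1, at 7736 to 7844 on ce11, is shown because an IDR summit at 7859 in COX1 lies just downstream of it and its region, 7689 to 8028, spans it (RefSeq record, plus strand, no capitals).
between ND4 and COX1, chrM:7736-7844: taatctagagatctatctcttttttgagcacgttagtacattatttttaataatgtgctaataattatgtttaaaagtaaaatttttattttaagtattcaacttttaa
Ensembl ends ND4 at 7808, inside this stretch, so its gene-free length differs between the annotations. The ce10 lists, read in their own coordinates, had 22 mitochondrial regions in the IDR list and 25 in each of the pooled list and both replicates. The strongest mitochondrial signals there were 397 in the IDR list, 244 in replicate 1 and 136 in replicate 2.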
